A study of Caenorhabditis elegans with 4 samples.

Results

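The regions described here are the ZIM-1 ChIP-seq peaks in the first 3 Mb of the left end of chromosome X in Caenorhabditis elegans. A peak belonged to the set when its midpoint lay at or below base 3000000 of X on WormBase release WS220. The rule used position alone, and it took 258 of the 9439 peaks of the series-wide list, or 2.73% of its nuclear peaks. The same interval held 150 of the 5552 peaks of ChIP replicate 1 and 74 of the 2886 nuclear peaks of ChIP replicate 2.

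The study immunoprecipitated chromatin with an affinity-purified rabbit polyclonal antibody, SDQ3965, whose target is ZIM-1, and sequenced 2 ChIP and 2 input libraries. All 4 libraries came from fem-2(b245) hermaphrodites kept at 20 °C, so the mutation is common to the ChIP and input groups and no library came from another genotype. The stage is labelled as young adult with a germline, whereas the growth protocol describes worms collected when gravid. Extracts were made from whole adults, so germline and somatic nuclei were mixed. Nothing in the labels says whether replicates 1 and 2 were separate cultures, and the spread between them may be technical. Peak lists of the ChIP libraries were used; input values were not analysed here.

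During meiosis in C. elegans each chromosome pairs with its homolog through a pairing center near 1 end, where repeats of a short sequence recruit a zinc finger protein that links the chromosome to the nuclear envelope. HIM-8 is the protein known for the pairing center of X, which lies toward its left end, while ZIM-1 is known for those of II and III. The gene table of assembly WBcel235 places zim-1, zim-2, zim-3 and him-8 beside each other on chromosome IV in that order. The gene fem-2 encodes a protein phosphatase of the sex determination pathway, and b245 is known as a temperature-sensitive allele. The left end of X is thus a pairing center end whose known binding protein was not the target of the antibody.

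ZIM-1 peaks were denser over the left end than over the remainder of X in all 3 lists. The series-wide list had 86.0 peaks per Mb on the left (95% Poisson interval 75.8 to 97.2, n = 258 peaks) and 40.3 per Mb beyond it (37.1 to 43.7, n = 593). Replicate 1 had 50 peaks per Mb (42.3 to 58.7) against 23.2 (20.8 to 25.8), and replicate 2 had 24.7 (19.4 to 31.0) against 10.4 (8.81 to 12.2). The left-to-rest ratio was 2.13 in the series-wide list (exact interval 1.84 to 2.47), 2.15 in replicate 1 (1.76 to 2.61) and 2.37 in replicate 2 (1.77 to 3.15). These intervals count each peak as independent, whereas peaks clustered. With the spread between 0.5 Mb windows taken into account by a quasi-Poisson fit, the intervals widened to 1.33 to 3.42, 1.31 to 3.53 and 1.40 to 4.02 in the same order. All of them lay above 1. Peaks covered 4.14% of the left end and 1.85% of the rest of X.

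The left end of X reached the density of autosomes away from their ends. It stayed below the left ends of II and III, the chromosomes for which ZIM-1 is known, but also below those of I and IV. Against the autosomes without their outer 3 Mb its ratio was 1.01 (exact interval 0.89 to 1.15). The left 3 Mb of II held 153.3 peaks per Mb (139.6 to 168.0) and that of III 222.7 (206.1 to 240.2). Neither Poisson interval overlapped that of X, but these intervals take peaks as independent and were not widened for clustering. Relative to its own chromosome, however, the 3 ends had ratios of similar size: the series-wide values were 1.86 on II (quasi-Poisson interval 1.36 to 2.54) and 1.98 on III (1.48 to 2.64), which overlap that of X. The chromosomes were also cut from their left tips into 30 full blocks of 3 Mb. The shorter remainder at the right of each chromosome was left out, so the ranks do not cover all right ends. In the series-wide list the left block of X was number 16 of the 30 by count, with 258 peaks. The left blocks of I, II, III and IV held 408, 460, 668 and 539 peaks, and that of V held 210. By count relative to the mean of its chromosome, the left block of X was number 1 of the 30 in the series-wide list, at 1.79 times. It was number 2 in replicate 1, at 1.80 times, and in replicate 2, at 1.93 times.

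**Figure D1:**
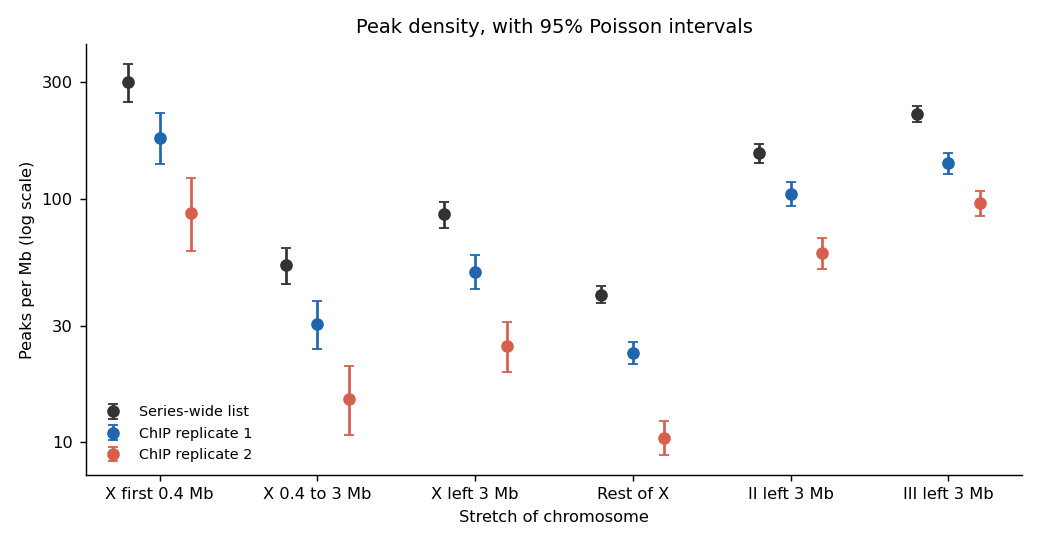
Peaks per Mb (vertical log axis) in 6 stretches of chromosome for the 3 lists; points are densities and bars 95% Poisson intervals. The first 0.4 Mb of X reaches 300 per Mb in the series-wide list, whereas the next 2.6 Mb have 53.1, which is 1.32 times the 40.3 of the rest of X.

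The excess was gathered next to the left tip. In the series-wide list the first 4 windows of 100 kb held 47, 36, 26 and 11 peaks, where the mean of X gives 4.80 per window. Replicate 1 had 25, 20, 19 and 7 peaks there (mean 2.78), and replicate 2 had 11, 14, 5 and 5 (mean 1.28). Peak counts were thus highest in the first 200 kb in every list and had fallen to a few times the mean of the chromosome by the end of the fourth window. These 4 windows carried 46.5% of the left-end peaks of the series-wide list, 47.3% of those of replicate 1 and 47.3% of those of replicate 2.

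**Figure D2:**
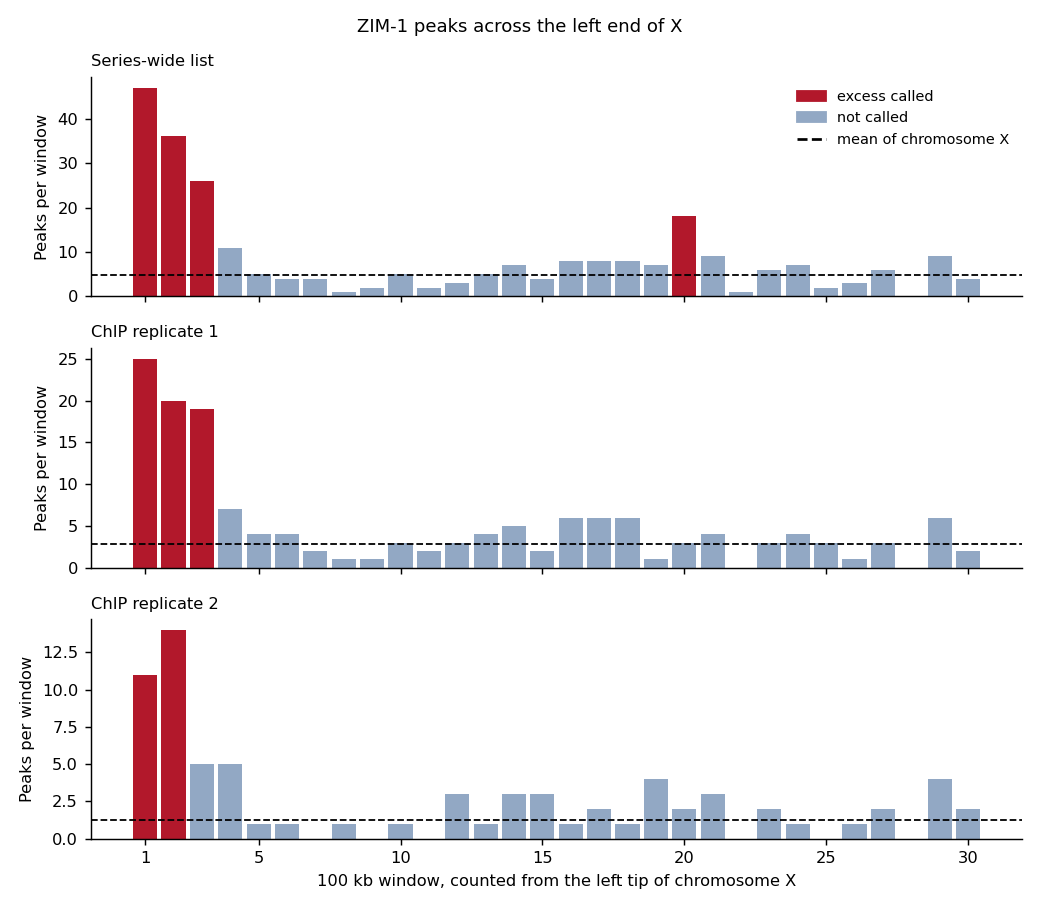
Peaks per 100 kb window (vertical axis, counts) for the 30 windows of the left end, numbered from the left tip, in each list; red bars are windows with a called excess and the dashed line is the mean of X. The first 2 windows are called in all 3 lists, and window 20, with 18 peaks, in the series-wide list alone.

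Across all 1005 windows of the nuclear genome, 88 windows of the series-wide list were called as exceeding the peak count expected from their chromosome's density (exact Poisson test, one-sided, Benjamini-Hochberg adjusted p under 0.05), a background of 8.76%. The left end of X had 4 called windows of 30 (13.3%), close to that background, and the other 148 windows of X had 5. In replicate 1, 3 of the 30 were called against a background of 4.68%, and in replicate 2, 2 of the 30 against 3.58%. Of the called windows of the series-wide list 3 were the outermost and the other was number 20, at 1.9 to 2 Mb; those of the replicate lists were all among the first 3. The first window passed with an adjusted p of 3.8e-27 in the series-wide list, 1.4e-13 in replicate 1 and 1.1e-05 in replicate 2 (Poisson test). The second passed with 2.2e-17, 3.1e-09 and 2.8e-08, in the same order. The third passed in the series-wide list and in replicate 1, with 1.2e-09 and 1.8e-08, but not in replicate 2, with 0.18. A Poisson background ignores clustering: against a negative binomial background with the spread of each chromosome's windows, 0 of the 30 windows passed in the series-wide list and 4 had an unadjusted p under 0.05.

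Beyond 0.4 Mb, a boundary set after the window counts were seen, the left end resembled the rest of X more closely. Its density from 0.4 to 3 Mb was 53.1 peaks per Mb (44.6 to 62.7), a ratio of 1.32 to the rest of X (exact interval 1.09 to 1.59). The ratio was 1.31 in replicate 1 (1.01 to 1.67) and 1.44 in replicate 2 (0.99 to 2.06). All 3 ratios were above 1, but the interval of replicate 2 included 1. The first 0.4 Mb, in contrast, had 7.45 times the density of X beyond 3 Mb in the series-wide list (6.07 to 9.07), 7.64 times in replicate 1 (5.83 to 9.89) and 8.42 times in replicate 2 (5.66 to 12.2).

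The outer 0.4 Mb of the 12 chromosome ends were set side by side to see whether other tips were alike. Relative to the mean of its chromosome, the left tip of X had the highest count in each list, at 6.25 times in the series-wide list, 6.39 times in replicate 1 and 6.83 times in replicate 2. The next highest values were 1.72 at the right tip of X in the series-wide list, 2.26 at the left tip of III in replicate 1 and 2.04 at the left tip of I in replicate 2. In peaks per Mb the left tip of X was also the densest of the 12 in the series-wide list, with 300, ahead of the left tip of III with 227.5 and that of I with 185.0. It was the densest in replicate 1 as well, with 177.5 against 175.0 at the left tip of III, and came next after the right tip of III in replicate 2, with 87.5 against 90.0. These ranks describe stretches chosen with the counts in view and carry no test.

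The outermost peak of X spanned bases 1 to 478 with a series-wide score of 22.5. Replicate 1 had a peak of score 369.1 from 1 to 630 there, and replicate 2 a peak of score 1005.4 from 1 to 426. Scores were assigned by the authors' peak caller; no header names the quantity, and they are read here only within a list. In the replicate lists many of the strongest peaks were tied at a score of 3100, and a few lay above it.

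The strongest sites of the left end had counterparts in both replicates. Of the 258 members, 3 were tied at the highest series-wide score of 174.4. On the rest of X 7 of 593 peaks were, a similar share, and over all nuclear peaks 78 of 9436. The 3 members spanned bases 161155 to 162079, 168500 to 170240 and 515970 to 517552, with widths of 925, 1741 and 1583 bp. Each of the 3 met a peak with the tied score of 3100 in replicate 1 and in replicate 2. Further sites were picked among members found in both replicates, and the highest-scoring member not found in both had 26.3. Next came a site of 2770 bp from 1374622 to 1377391, with a series-wide score of 172.8 and again 3100 in both replicates. The site from 180426 to 181676 had a score of 149.7, with 3215.6 in replicate 1 and 2071.1 in replicate 2.

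Of the 10 highest-scoring members found in both replicates, 6 lay in the first 0.4 Mb and 5 of these in the second 100 kb window; of all 64 members found in both, 36 lay in that first stretch, a share close to that of the 10. The 5 include, beside the 3 sites of that window already given, those from 142737 to 143724, with a score of 118.5, and from 181961 to 182967, with 113.8. Replicate scores at the first of these were 3100 in both libraries, and at the second 1609.6 and 1537.9. By count, though not by share, the second window also had the most recurring peaks: 17 of its 36 series-wide peaks were found in both replicates, and all 14 replicate 2 peaks there overlapped a replicate 1 peak. Outside it, the site from 47260 to 47980 had a score of 122.7, with 1953.0 in replicate 1 and 1311.4 in replicate 2. The narrowest of the 10 sites, 425 bp from 2809523 to 2809947, had 129.7, with 1215.4 in replicate 1 and 884.8 in replicate 2.

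The widest members were not the highest in score. The widest spanned 6231 bp from 2057703 to 2063933, with a series-wide score of 118.4 and 3100 in both replicates. Its edges were nearly alike in the replicates: replicate 1 placed them at 2057643 and 2064017, and replicate 2 at 2057645 and 2064005. The site of 5833 bp from 289462 to 295294 had a series-wide score of only 43.3, although it scored 3223.5 in replicate 1 and 3100 in replicate 2. The site of 4805 bp from 109474 to 114278 had 42.3, with 1873.8 in replicate 1 and 3100 in replicate 2, and that of 3244 bp from 2991965 to 2995208 had 46.4, with 3142.8 and 2692.4. Most replicate scores of these wide sites lay at or near the tied value, so no order among them can be read from the replicate lists.

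A wide site of replicate 1 had no counterpart in replicate 2. The series-wide peak of 4530 bp from 1136193 to 1140722 had a score of 12.4 and met a replicate 1 peak of 4705 bp with a score of 2789.8, whereas replicate 2 had no peak there. It was the highest-scoring left-end peak of replicate 1 missing from replicate 2. The next, from 62778 to 65308, scored 984.3 and met 3 series-wide peaks. The highest-scoring peak of replicate 2 missing from replicate 1, from 1884676 to 1886605, scored 403.8.

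**Figure D3:**
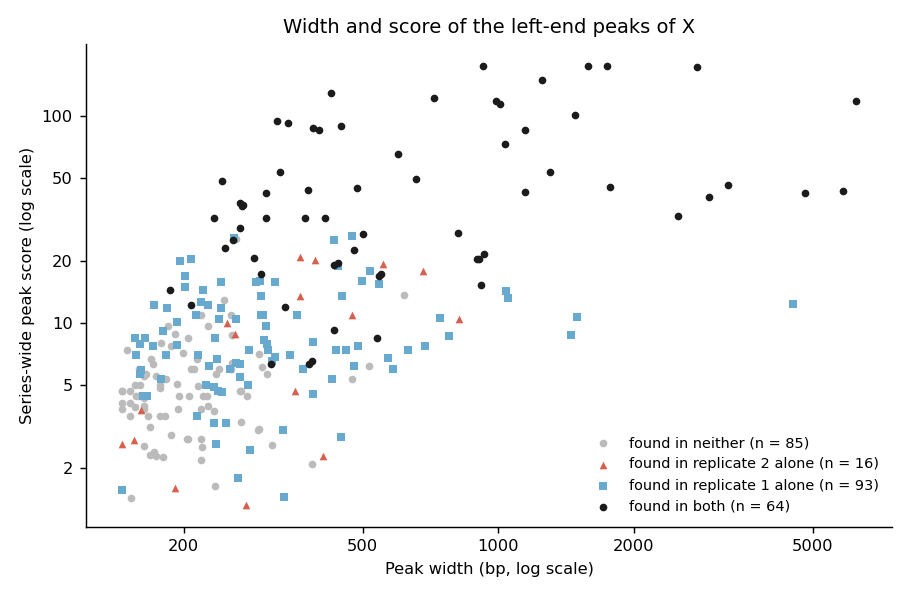
Width in bp (horizontal log axis) and series-wide score (vertical log axis) of the 258 left-end peaks, marked by the replicates in which they were found. Peaks found in both (n = 64) fill the upper part, with a median score of 39.2. The lowest in score of the 5 widest points is the site of replicate 1 alone at 4530 bp, with 12.4.

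Of the 258 left-end peaks, 64 were found in both replicates (24.8%, exact Clopper-Pearson interval 19.7 to 30.5), by an overlap of at least 1 bp. Another 93 overlapped a peak of replicate 1 only (36.0%), 16 overlapped 1 of replicate 2 only (6.20%), and 85 had no counterpart in either list (32.9%). The share found in both was close to the background of 25.9% over all nuclear peaks, and did not differ detectably from the 20.2% of the rest of X (difference 4.57 percentage points, Newcombe interval -1.38 to 10.95). It was lower than at the left ends of II, with 36.3% (difference -11.5 points, -18.1 to -4.45), and III, with 37.9% (-13.1 points, -19.2 to -6.40). Left-end peaks found in both had a median series-wide score of 39.2 and a median width of 482 bp, while those found in neither had 4.70 and 195 bp.

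Read from the replicate lists, 60 of the 74 left-end peaks of replicate 2 were found in replicate 1 (81.1%, 70.3 to 89.3), and 59 of the 150 of replicate 1 were found in replicate 2 (39.3%, 31.5 to 47.6). Both shares were close to those over all nuclear peaks, 84.2% and 43.9%. For replicate 1 the differences were -11.6 percentage points from the left end of II (Newcombe interval -20.9 to -1.92) and -19.9 from that of III (-28.6 to -10.6). For replicate 2 the differences were -11.1 points from II (-21.9 to -2.32) and -3.94 from III (-14.9 to 4.69). In the first 0.4 Mb, 33 of 35 peaks of replicate 2 recurred (94.3%, 80.8 to 99.3), and from 0.4 to 3 Mb 27 of 39 (69.2%, 52.4 to 83.0). For replicate 1 these were 32 of 71 (45.1%, 33.2 to 57.3) and 27 of 79 (34.2%, 23.9 to 45.7). The intervals of the 2 stretches overlapped in both lists. Overlap alone does not show equal shares, and no interval of the difference was computed for these stretches. Recurrence tracked the score in both libraries. Median scores were 346.5 for recurring and 98.1 for other left-end peaks of replicate 1, and 329.3 and 149.6 in replicate 2. All 11 left-end peaks of replicate 1 at or above the tied value recurred in replicate 2, and so did all 11 of replicate 2 in replicate 1. The rest of X was nearly the same, with 18 of 19 for replicate 1 and 21 of 22 for replicate 2.

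Where both replicates had a peak, they placed it at nearly the same bases. Over 59 overlapping pairs of the left end the median distance between midpoints was 25 bp (interquartile range 13 to 83), and 37 pairs lay within 50 bp. On the rest of X the median was 36 bp over 128 pairs (17 to 108.5). Replicate scores of the 59 pairs rose together, with a rank correlation (Spearman's rho) of 0.83 and, after taking log10, a Pearson's r of 0.89; the pairs of the rest of X gave 0.77 and 0.78. These are descriptions across sites of the same pair of libraries, and the tied scores enter them.

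**Figure D4:**
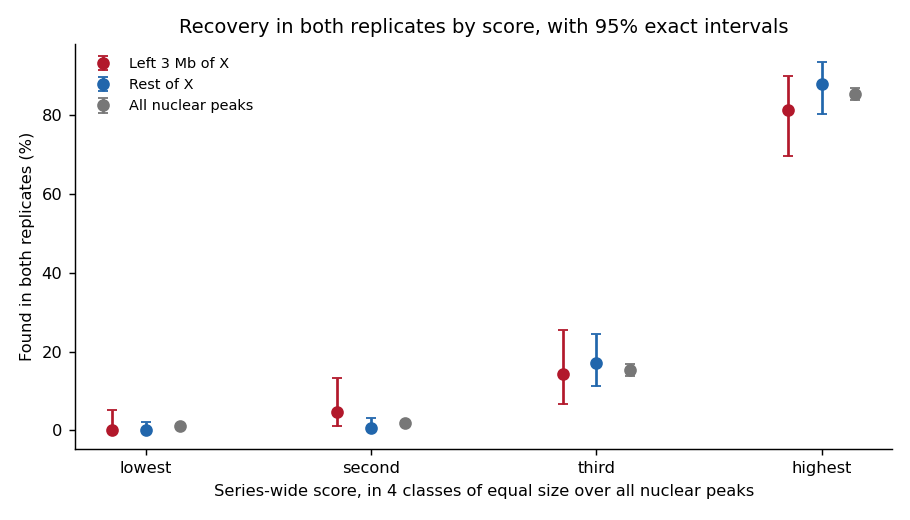
Percentage of peaks recovered by both replicates (vertical axis) in 4 equal-sized classes of the series-wide score, set over all nuclear peaks (horizontal axis); points are shares and bars 95% exact intervals. In the highest class the shares are 81.3% at the left end, 88.0% on the rest of X and 85.5% over all nuclear peaks, with overlapping intervals.

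Left-end members scored slightly higher than peaks elsewhere on X in the series-wide list. Their median series-wide score was 7.74 (95% interval of the median 6.79 to 8.88, interquartile range 4.70 to 17.3), against 6.66 on the rest of X, 11.3 at the left end of II, 13.1 at that of III and 7.86 over all nuclear peaks. Replicate medians were 141.5 against 125.7 on the rest of X in replicate 1 and 220.6 against 224.9 in replicate 2, so the direction was not the same in both. Of the left-end members 24.8% fell in the highest-scoring 25% of the series-wide list, against 18.2% of the rest of X. Of all 258 members 19 (7.36%) reached the highest 10% of the list, against 6.91% on the rest of X, 19.8% at the left end of II and 19.9% at that of III. The replicate lists gave other values: replicate 1 had 14.0% at the left end of X, 7.31% on the rest of X, 16.9% at the left end of II and 17.2% at that of III, and replicate 2 had 16.2%, 18.3%, 16.2% and 11.1%. The lower share of X against II and III in the series-wide list was therefore not seen in replicate 2. At matched scores the intervals for recovery overlapped: in the highest-scoring 25% of the list, where members began at 17.8, 52 of 64 left-end peaks were found in both replicates (81.3%, 69.5 to 89.9) and 95 of 108 on the rest of X (88.0%, 80.3 to 93.4). In the lowest-scoring 25%, 0 of 68 left-end peaks were, which allows up to 5.28% by the exact interval.

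Left-end members were also close to other X peaks in width, with a median of 267 bp (interquartile range 195.3 to 431.0) against 268 bp on the rest of X. They lay nearer to each other than peaks on the rest of X did, but not than nuclear peaks in general. The median gap between neighbouring peaks was 2277 bp at the left end and 10743 bp on the rest of X, and within the first 0.4 Mb it was 1113 bp. Over all nuclear peaks it was 2454 bp, at the left end of II 1209 bp and at that of III 1133 bp. Of the 257 gaps at the left end of X 94 were under 1 kb (36.6%), against 22.1% on the rest of X and 37.0% over all nuclear peaks. Members joined by such gaps formed 54 runs with 148 peaks, and 110 peaks stood alone. The run from 164766 to 170240 held 6 peaks, 4 of them found in both replicates, and included a site tied at the highest score. A run of the same size from 20585 to 23652 had scores of only 1.42 to 6.56, and 1 of its peaks was found in both. The longest stretch with no series-wide peak, 113331 bp, ran from 654781 to 768111.

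The remaining called window, number 20, differed from those at the tip. Its 18 peaks, from 1.9 to 2 Mb, were called in the series-wide list (exact Poisson test, adjusted p = 0.00011), yet 0 of them recurred in both libraries. Replicate 1 alone matched 3 of them, replicate 2 alone matched 4, and 11 had no match. Replicate 1 had 3 peaks in that window and replicate 2 had 2, and neither was called. Of the 18 peaks 14 lay within 12.7 kb, from 1942662 to 1955365. The window's median score was 4.12 and its highest 17.8, at the peak from 1945500 to 1946178. Pairs of these peaks met the same peak of replicate 2, from 1945414 to 1946814 and from 1953930 to 1954889, so the series-wide list divided stretches that the replicate list gave as 1 peak.

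At the limit of 3 Mb, the last members spanned 2991965 to 2995208 and 2996934 to 2997295, with scores of 46.4 and 13.5. The first peaks outside spanned 3007229 to 3007867 and 3035574 to 3036199, with scores of 19.5 and 6.41.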

How the data were processed

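The 3 deposited peak lists came from 2 ChIP libraries and, in 1 case, the whole series. Positions and scores are the authors' values: per the file headers the build is WormBase WS220, and the source columns name MACS (replicates) and MACS v2 (series-wide). The submitters' processing notes name BWA and ce10. The control, the settings, any pooling and the quantity behind the deposited score are not given in the sources used here. Read depth is unknown, so intervals rest on numbers of peaks. They cover counting error alone, apart from the quasi-Poisson intervals, which also take in the spread between 0.5 Mb windows.

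Members were taken by midpoint on X. They, the boundaries and the settings were chosen with earlier results of these data known. Named sites were the 10 highest-scoring members found in both replicates, all tied at the highest score, the 5 widest, the first peak of X, those beside the 3 Mb limit and the windows with most peaks; sites missing from a replicate, runs and the longest gap were chosen after their values were seen. Overlap was at least 1 bp. Chromosome lengths were the last base of the last peak. Windows of 100 kb were tested over the nuclear genome by an exact Poisson test with Benjamini-Hochberg adjustment. The test was tried on simulated peaks scattered at random, with planted dense windows. The simulated background lacked the clustering of the real peaks, so the trial does not show how often windows are wrongly called here. Shares have exact Clopper-Pearson and their differences Newcombe intervals. Software was scipy 1.17.1, pandas 2.3.3, numpy 2.4.6 and matplotlib 3.10.9 under Python 3.11.15. Protein, gene and sequence content were not analysed.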

Additional observations from a re-analysis of the deposited data

How the results depend on the processing

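No paired analysis was possible because the 2 ChIP libraries had no input values beside them here. The left-to-rest density ratio on X, 2.13, was between 2.15 and 2.37 with either replicate list alone; it was 2.62 among peaks found in both replicates and 2.53 in the higher-scoring 50%, and the cause was not tested. It was 3.32, 2.59 and 1.76 with a left end of 1, 2 and 4 Mb, 7.45 and 1.32 for the first 0.4 Mb and without it (both added after seeing the data), as the peaks gather at the tip, and 1.01 against autosomes without their outer 3 Mb. Of the called windows, 4 in the main setting, 2 to 3 were called with 1 replicate list, 2 with peaks found in both, where fewer peaks enter, 7 of 60 when windows were 50 kb, and 0 against the negative binomial background (4 at an unadjusted p under 0.05), whose spread includes the clusters. Members found in both replicates had a median score of 39.2, width of 482 bp and gap of 11342 bp; joining peaks closer than 500 bp gave a width of 301 bp and a gap of 4906 bp, by construction. Both shares of recurring peaks stayed within their intervals in every alternative run. The run on the higher-scoring 50% also cut the replicate lists to their own higher-scoring 50%. It therefore does not show that recurrence is independent of score. Against the full replicate lists, the share found in both ran from 0% in the lowest-scoring 25% of the series-wide list to 81.3% in the highest. The alignment of the antigen with proteins was not run. A peak missing from a list cannot be weighed without the read depth.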
